A study of Homo sapiens with 6 samples.

Results

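Proteasome genes encode the machine that breaks down proteins marked with ubiquitin, and 47 of the 19830 genes in the table carry their symbols. They were chosen by symbol, as PSMA, PSMB, PSMC, PSMD, PSME, PSMF or PSMG followed by a digit. The symbols with a hyphen, 4 antisense RNAs, were dropped, and 0 rows were pseudogenes. PSMC3IP has the right letters but encodes a meiotic recombination protein and no proteasome subunit. It was kept in the counts and medians of the members, and its own values are given apart. Of 49 genes listed by class 47 were in the table. PSMA8 and PSMB8 had no row under these symbols and could not be analysed.

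The RNA came from PANC-1, an established human pancreatic ductal adenocarcinoma line. Cells received 25 nM of SOX9 siRNA in 2 libraries or 25 nM of control siRNA in 2 libraries, by lipid transfection, and were pooled and harvested at 48 hours. SOX9 is a transcription factor found in progenitors and ducts of the pancreas. The deposited table holds the authors' DESeq2 comparison of these groups and no value for a single library, so the spread between libraries enters only through each gene's standard error. Nothing in the labels puts the 2 libraries of a group in separate experiments, and p-values then measure a spread that may be technical. Which group is the numerator is not stated. Fold changes are read as SOX9 siRNA over control siRNA from the sign at SOX9, and all directions would turn with that reading.

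The proteasome is a barrel, the 20S core, capped by the 19S regulator. The core stacks rings of alpha subunits, which gate the entrance, and rings of beta subunits, of which PSMB5, PSMB6 and PSMB7 cut peptide bonds. The regulator binds ubiquitin chains, removes them and unfolds the protein with a ring of ATPases encoded by PSMC genes. Under interferon and in leukocytes the catalytic subunits PSMB8, PSMB9 and PSMB10 take the place of PSMB5, PSMB6 and PSMB7 and form the immunoproteasome, which favours peptides for antigen presentation. When proteasome activity is short, the transcription factor NRF1, encoded by NFE2L1, raises subunit genes together.

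SOX9 itself, the siRNA target, stood at 55.9% of control per the authors' deposited table (95% Wald interval 39.2% to 79.8%), with a DESeq2 adjusted p = 0.0643. A gene was called tested where the authors gave an adjusted p, which held for 14063 genes. Keratins of simple epithelia were abundant, with mean normalized counts of 203350 for KRT8 and 99583 for KRT19 per the authors' deposited table. Of the 10 leukocyte markers listed, 9 were in the table and 3 were tested. The pan-leukocyte gene PTPRC had a mean normalized count of 2.28 and the monocyte gene CD14 had 52.2 per the authors' deposited table. The highest counts among these markers were 105.4 for ITGAM and 106.5 for CORO1A per the authors' deposited table. The 3 tested leukocyte markers were above 0, CD14 at 1.21 on the log2 fold change scale (DESeq2 adjusted p = 0.440), and their part in the values below was not tested. Of the 7 tested duct-like markers, SOX9 among them, 5 were above 0 and the median log2 fold change was 0.50. EPCAM fell, to 29.5% of control, with an adjusted p = 1.85e-05. Per the authors' deposited table KRT8 stood at 147% of control (adjusted p = 0.0786), KRT18 at 141% (adjusted p = 0.106), KRT19 at 141% (adjusted p = 0.259) and CDH1 at 154% (adjusted p = 0.877). The part of these markers in the proteasome values was not tested.

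No proteasome gene changed at an adjusted p under 0.05. Of 45 tested members 0 rose and 0 fell by the authors' DESeq2 test, while 1.81% of all tested genes were called. At an adjusted p under 0.1 the count was 1 of 45, PSMA5, and 2.62% of all tested genes passed. At an unadjusted p under 0.05 there were 5 members, all of them lower, which is 11.1% of the members and 11.1% of all tested genes. Genes that were lower at that p made up 6.15% of all tested genes. The share of members at that p was thus that of the table, while all 5 lay on the lower side.

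Small negative values prevailed. Of 45 tested members, 38 had a log2 fold change below 0 per the authors' deposited table, which is 84.4%, and 7 had one above 0. Below 0 were 52.1% of all tested genes and 64.0% of the most abundant 25% of tested genes, among which 35 of the 45 members lay. The median log2 fold change was -0.13 over the members, -0.02 over all tested genes and -0.07 over the most abundant 25%. Over the 75 ribosomal protein genes outside chromosome 6, another abundant group, it was -0.12. Within the most abundant 25% of tested genes, 29 of the 35 members were below 0 and the median of these members was -0.13. These medians are descriptions with no test, since genes of one fit share their libraries.

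**Figure D1:**
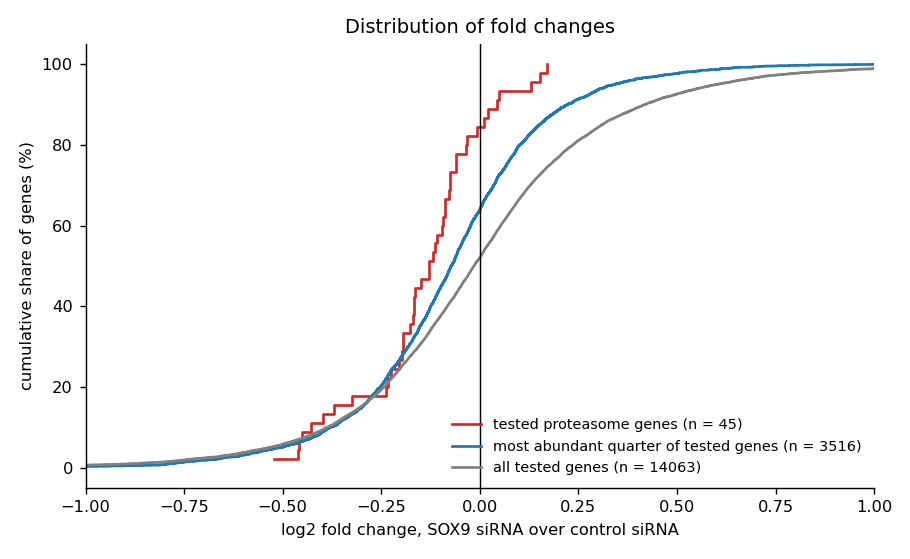
Cumulative share of genes (%) against the log2 fold change of SOX9 siRNA over control siRNA in the authors' fit. The red steps are the 45 tested proteasome genes, the blue line the 3516 genes that are the most abundant 25% and the grey line all 14063 tested genes; the red steps stand at 84.4% at 0, the blue line at 64.0% and the grey line at 52.1%.

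The precision bounds what could have been seen. The median standard error of the members was 0.18 on the log2 scale, and of all tested genes 0.22. The largest p that was called anywhere in the table was 0.000901, so a member with that median error would have needed a log2 fold change of 0.59 either way, which downward is 66.6% of control. The 95% Wald intervals of 34 of the 45 members, 75.6%, lay wholly within a 1.5-fold change in both directions. This held for 40.3% of all tested genes and 65.9% of the most abundant 25%. The other 11 intervals crossed the lower 1.5-fold bound and 0 crossed the upper one.

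**Figure D2:**
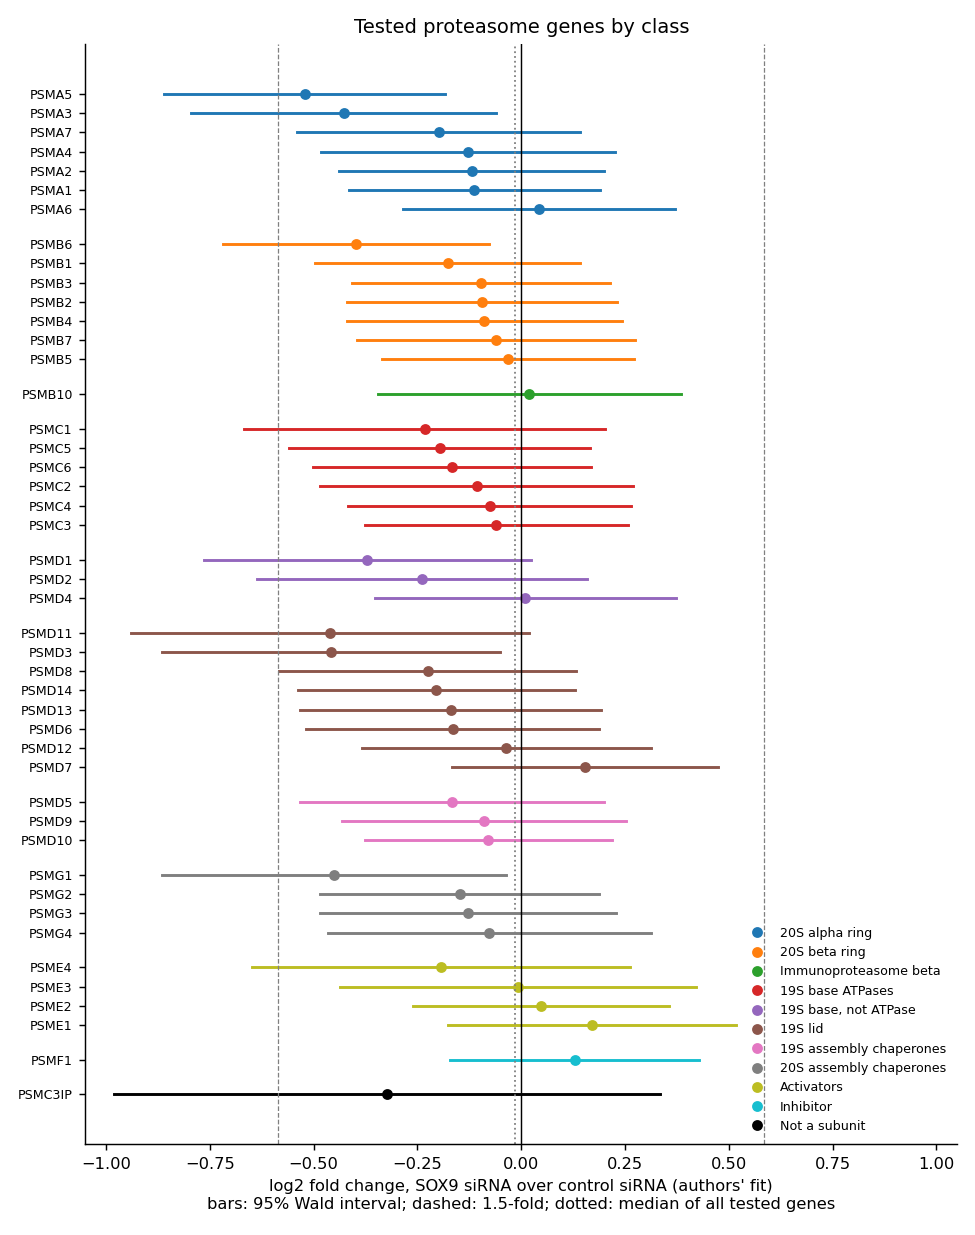
Log2 fold change of each tested proteasome gene, SOX9 siRNA over control siRNA, with its 95% Wald interval, grouped by class. The points run from -0.52 for PSMA5 to 0.17 for PSME1, and the intervals of 40 genes span 0.

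Among the 5 tested members with an unadjusted p under 0.05, PSMB6 had no entry in the RefSeq promoter table and is not shown. The other 4 are shown by the 250 bases before their annotated start. These windows can be read for motifs known from proteasome promoters. Positions are those of GRCh38.p14, and each sequence reads along its gene. Capitals mark CCAAT on either strand, the box bound by NF-Y, and TGACNNNGC on either strand, the core bound by NRF1 with small MAF proteins.

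PSMA5, chr1:109426449-109426698, minus strand: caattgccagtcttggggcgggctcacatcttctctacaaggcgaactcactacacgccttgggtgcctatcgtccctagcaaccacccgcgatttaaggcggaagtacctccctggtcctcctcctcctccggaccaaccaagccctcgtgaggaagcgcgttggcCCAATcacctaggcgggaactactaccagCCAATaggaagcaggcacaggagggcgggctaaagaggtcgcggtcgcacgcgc
PSMA3, chr14:58244593-58244842, plus strand: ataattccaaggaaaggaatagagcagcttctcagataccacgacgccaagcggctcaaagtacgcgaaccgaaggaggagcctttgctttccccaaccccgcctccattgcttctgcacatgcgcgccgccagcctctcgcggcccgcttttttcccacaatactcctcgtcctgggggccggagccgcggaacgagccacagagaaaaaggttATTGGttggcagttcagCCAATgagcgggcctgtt
PSMD3, chr17:39980557-39980806, plus strand: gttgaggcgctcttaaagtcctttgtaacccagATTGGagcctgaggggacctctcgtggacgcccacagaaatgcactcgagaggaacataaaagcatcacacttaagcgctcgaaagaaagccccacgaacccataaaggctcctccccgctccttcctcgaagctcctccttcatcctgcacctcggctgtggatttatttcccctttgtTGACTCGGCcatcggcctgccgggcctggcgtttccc
PSMG1, chr21:39183452-39183701, minus strand: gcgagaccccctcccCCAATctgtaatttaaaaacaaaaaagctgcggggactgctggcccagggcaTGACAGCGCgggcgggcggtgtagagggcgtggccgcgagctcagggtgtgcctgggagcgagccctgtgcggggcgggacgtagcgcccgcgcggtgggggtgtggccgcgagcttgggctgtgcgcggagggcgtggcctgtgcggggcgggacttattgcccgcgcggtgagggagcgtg

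PSMA5 and PSMA3 each held 2 CCAAT boxes, those of PSMA5 at 83 and 54 bases and those of PSMA3 at 35 and 18 bases before the start. PSMD3 held TGACTCGGC at 37 bases before the start, and PSMG1 held TGACAGCGC at 183 bases. Each had 1 CCAAT box farther out, at 217 bases in PSMD3 and 235 bases in PSMG1. Over the 41 members in the promoter table, 13 had TGACNNNGC in the 250 bases, 31.7%, against 13.2% of the 27305 genes of that table. CCAAT was in 20 of the 41, 48.8%, against 37.0% of all. ACAANG, a loose pattern for SOX-type sites, was searched on both strands with any base at N. It was in 11 of the 41, 26.8%, against 35.5% of all. Not every match is a SOX-type site. Of the printed windows, those of PSMA5 and PSMD3 held a match. The match in PSMA5 reads ACAAGG, and those in PSMD3 read ACAAAG on the opposite strand. Each motif was searched by itself, and matches of different motifs may overlap. A match is a description of letters and no measure of binding, and the SOX9 ChIP samples were not analysed here. The members with TGACNNNGC had a median log2 fold change of -0.14 over 12 tested genes, and those without it -0.11 over 27. For ACAANG the medians were -0.20 over 10 genes with it and -0.11 over 29 without.

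The alpha ring of the 20S core held the lowest value. PSMA5, the alpha subunit at ring position 5, had a mean normalized count of 5745, which its fold change divides into about 4718 for SOX9 siRNA and 6772 for control siRNA. Its level was 69.7% of control per the authors' deposited table (95% Wald interval 55.1% to 88.1%), with p = 0.00257 and a DESeq2 adjusted p = 0.0984, and it ranked 368 by p among all tested genes. PSMA3 divided into about 3721 for SOX9 siRNA and 5007 for control siRNA, or 74.3% of control per the authors' deposited table (57.6% to 95.9%), with an adjusted p = 0.310. Neither passed at 0.05. The other alpha genes lay closer to control. PSMA7, the most abundant of them with a mean normalized count of 15855, had a log2 fold change of -0.20 per the authors' deposited table, PSMA4 -0.13, PSMA2 -0.12 and PSMA1 -0.11. PSMA6 was the alpha gene above 0, at 0.04, per the authors' deposited table. The ring's median was -0.13 over 7 genes.

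All 7 constitutive beta genes were below 0, with a median of -0.09 and 0 calls. PSMB6, which carries the caspase-like activity that cuts after acidic residues, divided into about 5021 for SOX9 siRNA and 6615 for control siRNA. Its level was 75.9% of control per the authors' deposited table (60.8% to 94.8%), with an adjusted p = 0.251. The other catalytic genes were nearer to 0 per the authors' deposited table. PSMB5, of the chymotrypsin-like activity, had a log2 fold change of -0.03 with a standard error of 0.16, and PSMB7, of the trypsin-like activity, had -0.06 with 0.17 per the authors' deposited table. The structural subunits ran from -0.18 for PSMB1, the most abundant with a mean normalized count of 15296, to -0.09 for PSMB4, with PSMB3 at -0.10 and PSMB2 at -0.09 per the authors' deposited table. The interval of PSMB6 overlapped those of PSMB5 and PSMB7, and the differences between them were not tested.

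The immunoproteasome could be read from PSMB10 alone. PSMB10, the inducible partner of PSMB7, had a mean normalized count of 1305 and stood at 101% of control per the authors' deposited table (78.7% to 131%), with an adjusted p = 0.990. Its constitutive counterpart PSMB7 stood at 95.9% there (76.0% to 121%), and the intervals overlapped over most of their length. PSMB9, the inducible partner of PSMB6, had a mean normalized count of 8.57 per the authors' deposited table and was not tested. The thymus-specific PSMB11 had 0.529 per the authors' deposited table and was not tested either. Set side by side, the median log2 fold change was -0.12 over 14 genes of the 20S core, -0.17 over 17 genes of the 19S regulator and 0.02 for PSMB10. Below 0 were 13 of the 14 core genes and 15 of the 17 regulator genes. The ranges overlapped, from -0.52 to 0.04 in the core and from -0.46 to 0.15 in the regulator. No difference between these groups was tested.

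PSMB9 lies in the major histocompatibility complex on chromosome 6, and the low count was shared by its neighbours. Between HLA-F and TAPBP, bounds chosen after the values were seen, the table held 78 protein-coding genes in the RefSeq order, with a median mean normalized count of 7.56, and 58 of them were under 100. The 30 genes on each side had a median of 495. Genes that nearly every cell uses were low there as well. RPS18, a ribosomal protein gene of that stretch, had a mean normalized count of 666 per the authors' deposited table, while the 75 ribosomal protein genes outside chromosome 6 had a median of 23826. FLOT1 had 3.19 and ABCF1 had 3.86 per the authors' deposited table. The peptide transporter gene TAP1, which shares a promoter stretch with PSMB9, had 1.73 per the authors' deposited table. HLA-C and TUBB had mean normalized counts of 2841 and 1791 per the authors' deposited table. PSMB9 thus shared its low count with the genes round it, and the cause of the low counts was not tested.

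**Figure D3:**
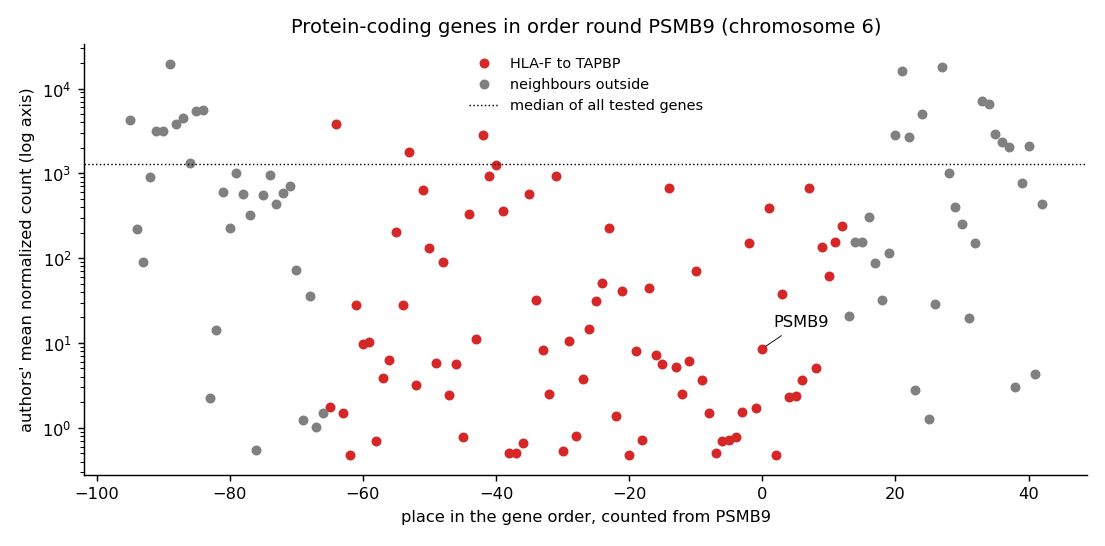
Authors' mean normalized count (log axis) of protein-coding genes by their place in the gene order, counted from PSMB9. Red points are the 78 genes from HLA-F to TAPBP and grey points the 30 genes on each side; the red points have a median of 7.56, the grey points 495, and the dotted line is the median of all tested genes, 1279.

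The 6 ATPases of the 19S base were all below 0, from -0.23 for PSMC1 to -0.06 for PSMC3 on the log2 fold change scale, with 0 calls and a median of -0.14. PSMC5 had -0.20, PSMC6 -0.17, PSMC2 -0.11 and PSMC4 -0.08 per the authors' deposited table. The smallest unadjusted p among these genes was 0.289, for PSMC5, per the authors' deposited table. PSMC4 stood apart by its reads. It had a mean normalized count of 121581 per the authors' deposited table, 12.7 times that of PSMC3, the next ATPase, and ranked 16 of all tested genes. PSMC4 held 26.6% of the summed mean counts of the 47 members. Counts are reads per gene and are not per length, since no transcript length was in the reference tables used here. Its level was 94.8% of control per the authors' deposited table (74.9% to 120%).

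High counts also ran along the neighbours of PSMC4 on chromosome 19. From SAMD4B to AKT2, bounds chosen after the values were seen, 14 of 25 protein-coding genes had a mean normalized count of 10000 or more, and their median was 10660.4. The 20 genes on each side had a median of 755, and 6 of those 40 reached 10000. In the authors' deposited table AKT2 at one edge had a mean normalized count of 110139 and the next gene outward, C19orf47, had 972. SAMD4B at the other edge had 20396.5 per the authors' deposited table, and GMFG beyond it had 35.2. PAF1, SUPT5H and FBL had counts of 76746, 85831 and 77052 per the authors' deposited table. PANC-1 is known to carry extra copies of a stretch of chromosome 19 with PAF1 and AKT2. Copy number was not measured here, and its part in these counts was not tested. With SOX9 siRNA 1 of the 25 genes rose and 0 fell at an adjusted p under 0.05, and their median log2 fold change was 0.07. Over all 14063 tested genes 122 rose and 132 fell. The gene of this stretch that rose was FCGBP, beside PSMC4. It had a mean normalized count of 314 and a DESeq2 adjusted p = 0.0331 per the authors' deposited table.

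**Figure D4:**
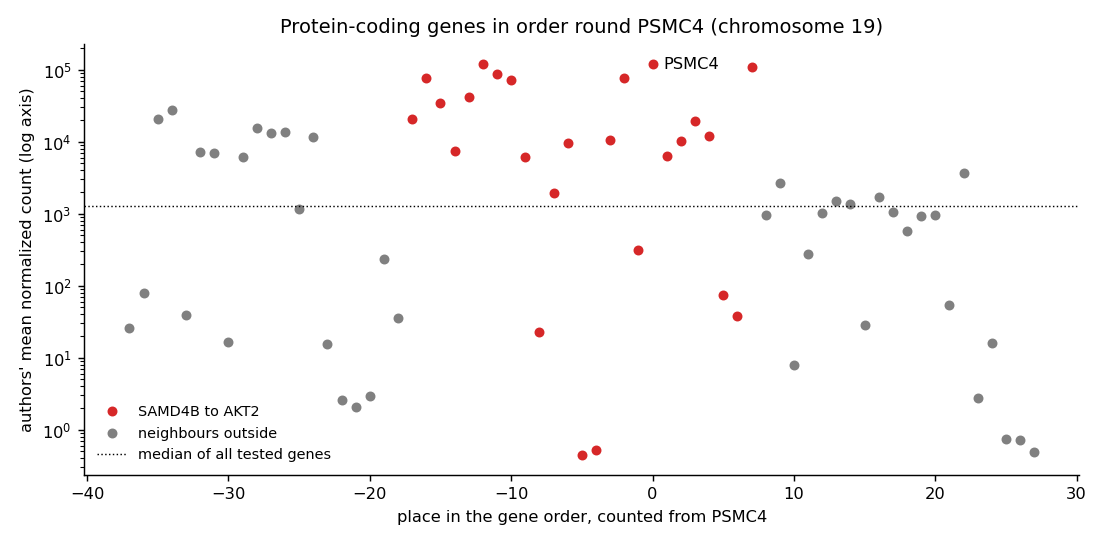
Authors' mean normalized count (log axis) of protein-coding genes by their place in the gene order, counted from PSMC4. Red points are the 25 genes from SAMD4B to AKT2 with a median of 10660.4, grey points the 20 genes on each side with a median of 755, and the dotted line is the median of all tested genes, 1279.

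The scaffold of the 19S base and its lid held most of the low values outside the core. PSMD1 and PSMD2, the large scaffold proteins that dock shuttle factors, had log2 fold changes of -0.37 and -0.24 per the authors' deposited table. PSMD2 was the most abundant of these with a mean normalized count of 29202. PSMD4, a receptor for ubiquitin chains, stood at 0.01 per the authors' deposited table. Of the lid, PSMD11 was lowest at 72.7% of control per the authors' deposited table (52.1% to 101%), with p = 0.0595 and an adjusted p = 0.482. PSMD3 divided into about 10682 for SOX9 siRNA and 14676 for control siRNA, or 72.8% of control per the authors' deposited table (54.9% to 96.5%), with an adjusted p = 0.338. PSMD14, the enzyme that removes ubiquitin chains at the lid, had a log2 fold change of -0.20 with a standard error of 0.17 per the authors' deposited table. PSMD7, the partner of PSMD14, was the lid gene above 0, at 0.15 with a standard error of 0.16, per the authors' deposited table. PSMD8, the most abundant lid gene, had -0.23, PSMD13 -0.17, PSMD6 -0.16 and PSMD12 -0.04 per the authors' deposited table. The lid had 0 calls among 8 genes and a median of -0.19.

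The 4 assembly chaperones of the 20S core ran from -0.45 to -0.08 on the log2 fold change scale and the 3 of the 19S regulator from -0.17 to -0.08, with 0 calls. PSMG1, which pairs with PSMG2 to build the alpha ring, divided into about 2045 for SOX9 siRNA and 2796 for control siRNA. Its level was 73.2% of control per the authors' deposited table (54.9% to 97.5%), with an adjusted p = 0.367. PSMG2 was at 90.2% of control per the authors' deposited table (71.4% to 114%), and PSMG3 and PSMG4, the other chaperone pair of that ring, had log2 fold changes of -0.13 and -0.08. The 19S chaperones PSMD5, PSMD9 and PSMD10 had -0.17, -0.09 and -0.08 per the authors' deposited table.

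Of the 4 activators 2 were above 0 and 2 below, and the inhibitor was above 0, with 0 calls. PSME1 and PSME2, whose products form the PA28 cap that interferon induces, had log2 fold changes of 0.17 and 0.05 with standard errors of 0.18 and 0.16 per the authors' deposited table. The nuclear activator PSME3 had -0.01 and PSME4, the large single-chain activator, had -0.19 per the authors' deposited table. PSMF1, which inhibits the core in vitro, had 0.13 with a standard error of 0.15 per the authors' deposited table. None of the 5 had an unadjusted p under 0.05, the smallest being 0.335 for PSME1 per the authors' deposited table. PSMC3IP, which is no subunit, had a mean normalized count of 382 and a log2 fold change of -0.32 with a standard error of 0.34 per the authors' deposited table. Without it the median of the members was -0.12, and 37 of the 44 were below 0.

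**Figure D5:**
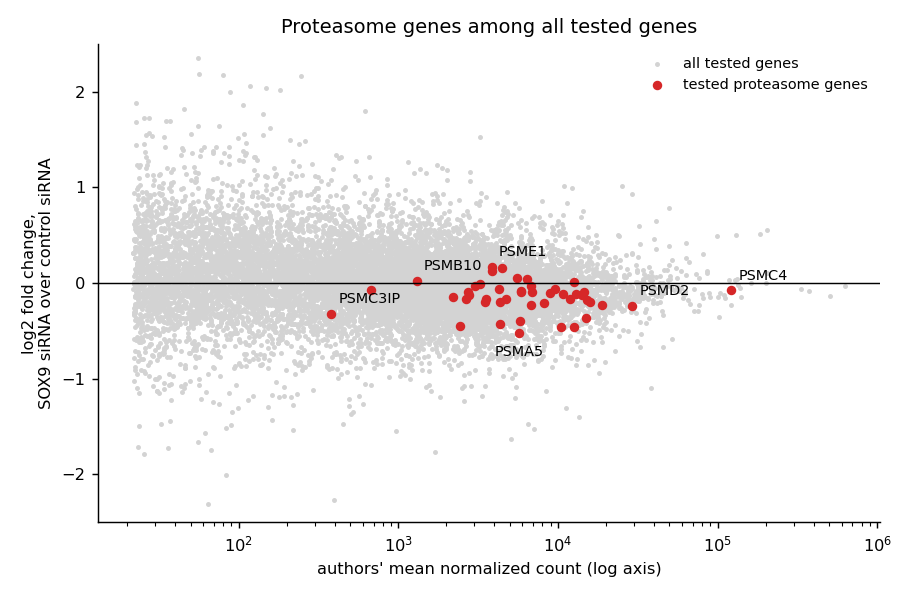
Log2 fold change of SOX9 siRNA over control siRNA against the authors' mean normalized count (log axis). Red points are the 45 tested members, with mean counts from 382 for PSMC3IP, which is no subunit, to 121581 for PSMC4. Grey points are all 14063 tested genes, of which 7 lie outside the plotted range.

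Partners of the proteasome outside the PSM symbols had 0 calls among 13 tested genes and a median log2 fold change of -0.12. ZFAND2A, a stress-induced proteasome adaptor, was at 72.1% of control per the authors' deposited table (53.3% to 97.5%), with an adjusted p = 0.373. POMP, the chaperone that places the beta ring, had a log2 fold change of -0.21, USP14, a ubiquitin-removing enzyme on the regulator, had -0.17, and TXNL1 had -0.17 per the authors' deposited table. The ubiquitin receptor ADRM1 had -0.07 and SHFM1, now SEM1, a small lid subunit, had -0.12 per the authors' deposited table.

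Ubiquitin genes and shuttle factors had 0 calls among 17 and a median of -0.08. FAF2, an adaptor of the unfolding enzyme VCP, was at 132% of control per the authors' deposited table (104% to 166%), with an adjusted p = 0.295. FAF1 had a log2 fold change of -0.29, the protease DDI2, which activates NRF1, had -0.34, and the ubiquitin-activating enzyme UBA6 had -0.24 per the authors' deposited table. The ubiquitin gene UBB had 0.03 per the authors' deposited table.

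Transcription factors of proteasome genes, listed together with the enzyme gene NGLY1, had 0 calls among 9 genes and a median of -0.26. NFE2L1, the gene of NRF1, had a mean normalized count of 18807 and stood at 98.3% of control per the authors' deposited table (80.2% to 120%). MAFF, a small MAF partner, was at 56.7% of control per the authors' deposited table (34.6% to 92.8%), with an adjusted p = 0.320. NFYB and NFYC, subunits of the CCAAT-binding factor, had log2 fold changes of -0.42 and -0.26, and NGLY1, which strips sugars from NRF1, had -0.30 per the authors' deposited table. Antigen processing genes had 0 calls among 11 tested of 14, with 10 above 0 and a median of 0.09. ERAP2, which trims peptides, was at 143% of control per the authors' deposited table (106% to 194%), with an adjusted p = 0.282, while NLRC5 and HLA-B had log2 fold changes of 0.20 and 0.18.

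Overlapping transcripts limit some values, since the sources used here do not say whether strand entered the counting. An antisense or overlapping row was in the table for 12 of the 45 tested members. PSMA3-AS1 had a log2 fold change of -0.01 beside -0.43 for PSMA3, and PSMG3-AS1 had 0.61 beside -0.13 for PSMG3 per the authors' deposited table. The mean normalized counts of these antisense RNAs, 829.6 for PSMA3-AS1 and 195 for PSMG3-AS1 per the authors' deposited table, were lower than those of the genes they face. Overlapping rows could also exceed the member. MLX had 2192 beside 382 for PSMC3IP, and SPIRE1 had 5307 beside 2191 for PSMG2, per the authors' deposited table. All other overlapping rows had lower counts than their member.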

How the data were processed

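RNA-seq of PANC-1 cells was used as the authors' comparison of 2 SOX9 siRNA with 2 control siRNA libraries. Per the submitters' processing notes, the authors used HISAT2 2.0.5, featureCounts and, for the comparison, DESeq2 1.18.1. Both hg19 and mm10 appear there as builds, without a role. Per the file headers, the mean normalized count is the authors' signal after size factors, the fold change and its standard error are log2 values of the authors' fit, and the deposited Wald statistic is a score. Each p-value and adjusted p-value was used as deposited. Per the labels, each library had at least 60000000 reads, and totals per library were not analysed here.

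From these, 95% Wald intervals were computed with Python 3.11.15 and scipy 1.17.1 as 1.96 standard errors each way. A Benjamini-Hochberg adjustment recomputed over tested genes differed from the deposited one by at most 9.4e-15. The steps were tested on simulated data. A mean count was divided between groups in the fitted ratio, which assumes groups of equal size. Gene order and promoters came from RefSeq, GRCh38.p14. The members, classes and lists were chosen with earlier results of these data known. Named were the 12 members with the smallest p, the immunoproteasome genes and their counterparts, the most abundant and both extremes of each class, and up to 4 genes of each other list; further genes were named after their values were seen. A level per coding length was planned and was not computed, since no protein table was at hand. Some single genes of the lists are counted with their list and are not reported here.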

Additional observations from a re-analysis of the deposited data

How the results depend on the processing

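The count of called proteasome genes was 0 with adjustment over every gene, at a mean normalized count of at least 100, with centred fold changes and in a test against a 1.5-fold change, and 1 at an adjusted p under 0.1. Other genes of the pathway had 0 calls under each alternative tried on them. The median log2 fold change of the members was -0.11 with centring and -0.10 without members that had an antisense or overlapping row. Their mean weighted by 1 over the squared standard error was -0.13. For the 20S core the weighted mean was -0.17, and for the 19S regulator it was -0.15, against medians of -0.12 and -0.17, so the order of these groups depended on the summary used. Of the 53 single genes followed through the alternatives, SOX9, KRT8 and PSMA5 passed at an adjusted p under 0.1, and EPCAM did not pass in the test against a 1.5-fold change; the others kept their side of the threshold. No paired analysis was possible because the table holds no value per library, and no library could be left out for that reason. PSMB9 and PSMB11 had no adjusted p in the deposited table, and the cause of their low counts was not tested.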
